A study of Mus musculus with 7 samples.

Results

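Laminins and proteins of the basement membrane, 10 genes in all, were followed in whole mouse embryos lacking Adnp, which encodes a zinc-finger and homeodomain protein needed for early development. They were Lama1, Lama4, Lama5, Lamb2 and Lamc1 (laminin chains), Nid1 and Nid2 (nidogens), Hspg2 (perlecan), Sparc and Thbd. They were chosen by name, as the probe sets whose annotation gives only that gene's symbol, and all 10 of 10 were found, on 16 probe sets, among 12393 genes with such a probe set. Of the 10 genes, 7 passed a filter on brightness and were tested among 8019 genes in all. The other 3 (Lama4, Lamb2 and Thbd) lay under it.

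The embryos were taken on embryonic day 9 and were littermates from a C57BL/6 colony of Adnp heterozygous mice. Knockout embryos (Adnp-/-) were measured on 2 arrays, heterozygous embryos (Adnp+/-) on 3 and wild-type embryos (Adnp+/+) on 2. Each array carried RNA pooled from 2 embryos of one genotype, so the pool is the replicate, and the pools were of mixed sex by their labels. Per the labels, yolk sac and amnion were removed and used to type the genotype. How complete the removal was is not known from the labels. Affymetrix Murine Genome 430A arrays were read as MAS5 signals, a linear brightness per probe set. Differences are given as log2 of (signal + 3.8), where 3.8 is the pseudocount, which understates changes of dim genes. Every adjusted p is limma's, from 1 fit over all 7 arrays, with Benjamini-Hochberg adjustment over all genes tested and a threshold of 0.05.

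Basement membranes are thin sheets of matrix under epithelia and around muscle, nerve and vessels. Laminins are trimers of an alpha, a beta and a gamma chain that assemble into a network on the cell surface. Nidogens and perlecan join this network to a second one made of type IV collagen, and integrins and dystroglycan anchor it to cells. In the early mouse embryo, parietal endoderm lays down a very thick basement membrane, Reichert's membrane, and makes large amounts of laminin, type IV collagen and Sparc. Sparc is a secreted matrix protein that binds collagen. Thbd encodes thrombomodulin, a membrane receptor for thrombin found on endothelium, parietal endoderm and trophoblast. It is not a structural part of basement membranes.

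The 7 arrays had median signals of 55.5 to 57.4 and correlated with Pearson's r of 0.947 to 0.974 across probe sets, which are not independent replicates. Adnp's single annotated probe set also names the neighbouring gene Dpm1, so loss of Adnp RNA could not be checked and the genotypes rest on the labels. Its signal was 1880 and 1682 in knockouts, 1115, 985.9 and 1196 in heterozygotes and 897.2 and 1026 in wild type. The pools also differed in the summed signal of 2 Y-linked genes, which was 96.1 and 162.4 in the knockout, 72.0 to 134.6 in the heterozygotes and 10.8 and 4.6 in wild type. Both wild-type values were thus below those of all other pools, although the labels give mixed sex. Sex was not tested, and its part in the comparisons with wild type cannot be told apart from that of genotype. Of 16 markers of the embryo proper, among them those of heart, somites and neural tube, 15 passed the filter, which is on the mean over all arrays. Their summed signal over 16 genes was 5740 and 4919 in the knockout, 5626, 6325 and 5648 in heterozygotes and 6604 and 5683 in wild type. Presence of each marker in each pool was not tested. Heterozygous replicate 1 stood apart in Prl8a2, a decidual prolactin-family gene named after its values were seen. It read 828.6 there, against 37.6 and 27.4 in the other heterozygous pools, 46.1 and 138.4 in the knockout and 37.4 and 16.2 in wild type.

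Promoter sequences were matched for 5 of the 10 genes (Lama5, Lamb2, Nid1, Hspg2 and Sparc), from RefSeq on GRCm38.p6. Each runs from 250 bases before to 50 bases after the start of transcription. The pair below is shown for the signals of the brighter probe set of each gene. There Hspg2 was lowest in both knockout pools, while Sparc had nearly equal mean signals in all genotypes. Capitals mark matches to GGGCGG, a motif bound by Sp1, on either strand. Hspg2 is on the + strand at chr4:137468553-137468852 and Sparc on the - strand at chr11:55420031-55420330.
Hspg2: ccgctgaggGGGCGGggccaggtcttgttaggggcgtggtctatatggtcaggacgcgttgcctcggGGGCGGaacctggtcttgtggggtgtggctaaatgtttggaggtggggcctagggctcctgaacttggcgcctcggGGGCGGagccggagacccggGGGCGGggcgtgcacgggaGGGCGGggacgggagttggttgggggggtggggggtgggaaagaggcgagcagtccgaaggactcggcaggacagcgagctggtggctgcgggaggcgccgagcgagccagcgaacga
Sparc: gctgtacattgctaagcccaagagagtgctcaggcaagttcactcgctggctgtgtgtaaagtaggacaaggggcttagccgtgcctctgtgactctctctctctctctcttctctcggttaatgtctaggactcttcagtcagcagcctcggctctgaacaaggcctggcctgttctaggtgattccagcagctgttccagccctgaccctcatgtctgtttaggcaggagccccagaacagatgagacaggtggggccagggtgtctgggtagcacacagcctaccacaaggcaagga
The Hspg2 promoter held 5 matches to GGGCGG and had 70.3% G and C, and the Sparc promoter held 0 and had 55.3%, against a median of 52.7% over 32851 promoters of this length. GGGCGG was in 3 of the 5 promoters (Hspg2, Lama5 and Nid1), against 35.66% of all 32851. The other motifs searched, also on both strands, were AGATAA and TGATAA for GATA factors, ACAATG and ACAAAG for SOX factors and TGAGTCA for AP-1. They were in 0 of the 5 promoters, against 11.18%, 9.05%, 12.57%, 18.71% and 5.20% of all promoters. A match is only a run of letters, and a missing one says only that these letters are not in this window.

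None of the 7 tested genes passed the threshold between any 2 genotypes. Between knockout and wild type limma called 0 of 7, against 3.32% of all 8019 genes. Between knockout and heterozygous embryos it called 0 of 7, against 5.86% of all genes, and between heterozygous and wild-type embryos 0 of 7, where 0 of all genes were called (0%). At an unadjusted p under 0.05 there were 2 of the 7 in the first comparison (Hspg2 and Lamc1), against 19.1% of all genes. In the second there were 3 (those and Nid2), against 22.7%, and in the third 0, against 3.54%. The median log2 difference of the 7 was 0.05 between knockout and wild type and 0.05 between knockout and heterozygotes, where the medians of all genes were -0.01 and -0.02. Between heterozygotes and wild type it was -0.11, with 6 negative and 1 positive, where the median of all genes was 0.01. The 95% intervals of the 7 genes, from the lowest bound to the highest, ran from 0.627-fold to 1.65-fold between knockout and wild type, from 0.697-fold to 1.79-fold between knockout and heterozygotes, and from 0.639-fold to 1.31-fold between heterozygotes and wild type. Larger changes of these 7 probe sets lay outside their intervals, which are not corrected for the number of genes. With 2 or 3 arrays a group, precision is limited by their number.

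**Figure D1:**
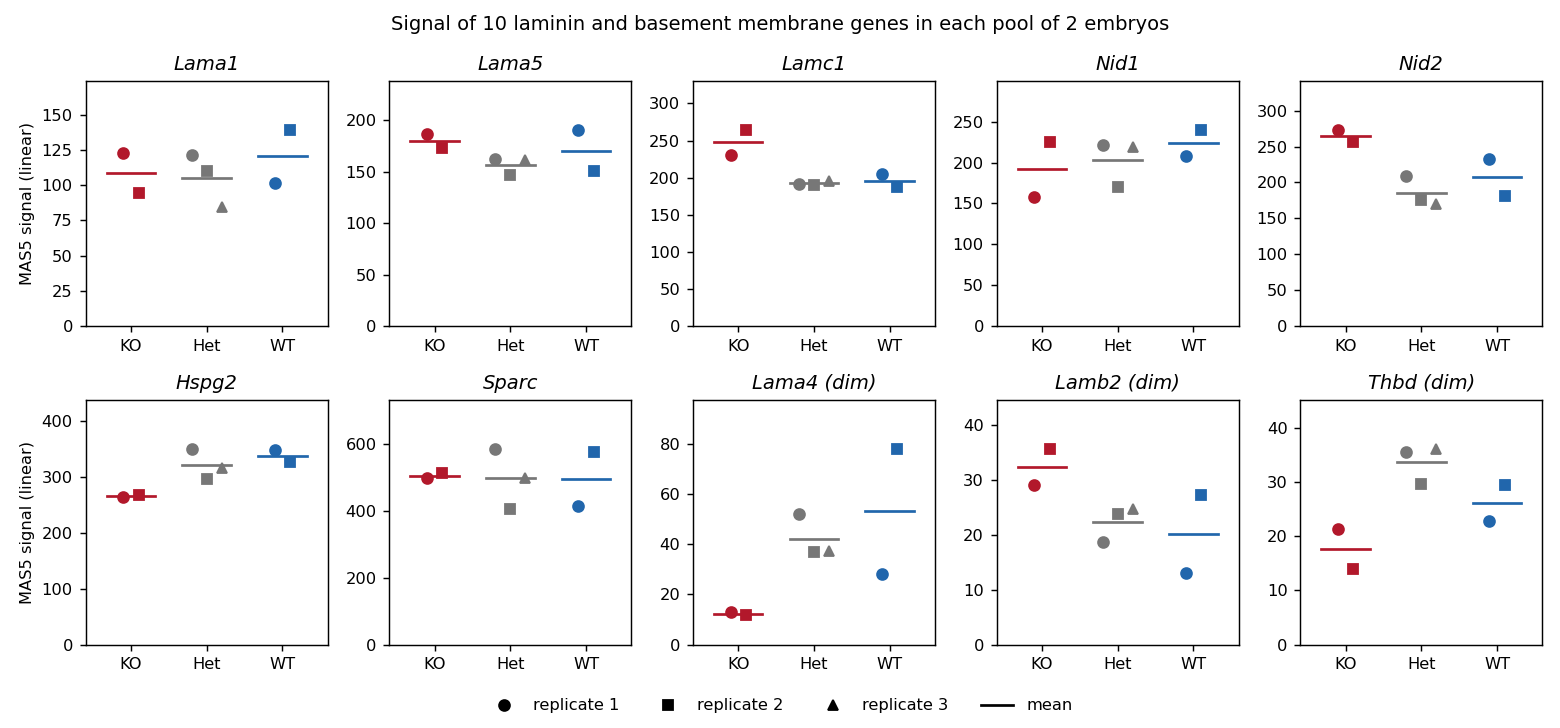
Linear MAS5 signal of the 10 genes in each pool of 2 embryos, with knockout (KO), heterozygous (Het) and wild-type (WT) pools side by side, a point per pool and a line at the mean. Each axis starts at 0. Both knockout points lie above all others for Lamc1, Nid2 and Lamb2 and below all others for Hspg2, Lama4 and Thbd.

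Laminin chains came in alpha, beta and gamma forms. Lama1 encodes the alpha chain of laminin 111, the first laminin of the embryo. It read 122.7 and 94.5 in the knockout, 121.5, 109.8 and 84.6 in heterozygotes and 101.8 and 139.2 in wild type. The groups overlapped, and the knockout differed from wild type by -0.14 (SE 0.23, limma, adjusted p = 0.799). Lama1 varied as much within genotypes as between them, with its highest and lowest of 7 pools 1.65-fold apart. Without wild-type replicate 2 the difference was 0.08 and without knockout replicate 2 it was 0.04, so its direction rested on single pools.

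Lama5, the alpha chain common in epithelial basement membranes, read 186.2 and 173.5 in the knockout, 162.0, 147.1 and 160.9 in heterozygotes and 190.5 and 150.6 in wild type. Both knockout pools were above the 3 heterozygous ones and within the span of wild type. The differences were 0.08 from wild type (SE 0.15, limma, adjusted p = 0.831) and 0.20 from heterozygotes (SE 0.14, adjusted p = 0.459). A second probe set of Lama5 was 0.26 above wild type (adjusted p = 0.575) and 0.36 above heterozygotes (adjusted p = 0.334). Without wild-type replicate 2 the difference of the first probe set from wild type was -0.08.

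Lamc1, the gamma chain shared by most laminins, was among the steadiest of the 7 genes. It read 230.9 and 264.2 in the knockout, 191.8, 190.4 and 195.0 in heterozygotes and 204.3 and 187.6 in wild type. Both knockout pools lay above all 5 others. The mean was 247.6 ± 23.5 in the knockout (SD, n = 2), 192.4 ± 2.36 in heterozygotes (n = 3) and 196.0 ± 11.8 in wild type (n = 2). The knockout was 1.26-fold wild type (95% interval 1.02 to 1.54, limma, adjusted p = 0.215) and 1.28-fold the heterozygotes (1.06 to 1.54, adjusted p = 0.116), and neither passed. Its residual SD of 0.08 on the log2 scale compares with a median of 0.17 over all genes. The other Lamc1 probe set was near the floor, at 2.6 and 4.8 in the knockout, 4.6 to 19.6 in heterozygotes and 3.2 and 23.9 in wild type. Averaging both probe sets turned the difference from wild type to -0.29 and from heterozygotes to -0.20.

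Lamb2 and Lama4 were dim and were tested only in a fit without the filter, over 12393 genes. There limma called 1.3% of all genes between knockout and wild type and 2.47% between knockout and heterozygotes. Lamb2, a beta chain of neuromuscular and kidney basement membranes, read 29.0 and 35.7 in the knockout, 18.6, 23.7 and 24.7 in heterozygotes and 13.1 and 27.3 in wild type. Both knockout pools were the highest, yet the difference of 0.65 from wild type did not pass (SE 0.38, limma, adjusted p = 0.468). It was 0.21 without wild-type replicate 1 and 1.09 without wild-type replicate 2. Lama4, an alpha chain of vessel and mesenchyme basement membranes, read 12.9 and 11.7 in the knockout, 52.2, 37.0 and 37.4 in heterozygotes and 28.1 and 78.3 in wild type.

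Lama4 thus had its lowest signals in both knockout pools and had the largest difference of the 10 genes. The knockout was at -1.67 from wild type (SE 0.44, limma, adjusted p = 0.114) and at -1.50 from heterozygotes (SE 0.40, adjusted p = 0.0941), and neither passed. Without wild-type replicate 1 both passed, at -2.35 from wild type (adjusted p = 0.0389) and -1.50 from heterozygotes (adjusted p = 0.0466). With other single arrays left out the difference from wild type was as small as -0.99. Its second probe set, also dim, overlapped between the genotypes, at 3.0 and 24.0 in the knockout, 15.1, 16.2 and 25.7 in heterozygotes and 19.7 and 27.6 in wild type. Signals this near the pseudocount of 3.8 make the size of the difference uncertain.

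No linker between the networks passed the threshold. Nid1 read 157.9 and 225.3 in the knockout, 221.3, 170.1 and 219.0 in heterozygotes and 207.9 and 239.8 in wild type, with the groups overlapping. Its difference from wild type was -0.24 (SE 0.20, limma, adjusted p = 0.560), and 0.01 without knockout replicate 1. A dimmer Nid1 probe set read 22.9 and 40.6 in the knockout, 78.6, 52.3 and 40.7 in heterozygotes and 27.9 and 85.6 in wild type. There both knockout pools were below the heterozygous ones (-0.78, SE 0.44, limma, adjusted p = 0.342). They overlapped wild type (-0.63, SE 0.48, adjusted p = 0.532), and neither difference passed. Nid2 read 273.0 and 256.3 in the knockout, 208.7, 175.1 and 170.6 in heterozygotes and 233.0 and 181.1 in wild type. Both knockout pools were above all others.

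Nid2 came nearest to the threshold among the 7 tested genes. Its mean was 264.7 ± 11.8 in the knockout (SD, n = 2), 184.8 ± 20.8 in heterozygotes (n = 3) and 207.1 ± 36.7 in wild type (n = 2). The knockout was 1.43-fold the heterozygotes (95% interval 1.14 to 1.79, limma, adjusted p = 0.0699) and 1.28-fold wild type (0.998 to 1.65, adjusted p = 0.266). With array weights the first passed (adjusted p = 0.0389), and it was the only call of the 7 under any alternative tried.

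Hspg2, the heparan sulphate proteoglycan perlecan, went the other way. It read 265.2 and 268.2 in the knockout, 351.5, 297.6 and 317.3 in heterozygotes and 349.4 and 328.0 in wild type, so both knockout pools were below all others. The mean was 266.7 ± 2.12 in the knockout (SD, n = 2), 322.1 ± 27.3 in heterozygotes (n = 3) and 338.7 ± 15.1 in wild type (n = 2). The knockout was 0.790-fold wild type (95% interval 0.651 to 0.959, limma, adjusted p = 0.180) and 0.832-fold the heterozygotes (0.697 to 0.993, adjusted p = 0.203), which did not pass. The dimmer Hspg2 probe set overlapped between genotypes and was at -0.13 from wild type (SE 0.44, adjusted p = 0.917).

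Both knockout pools lay beyond all 5 others in 3 of the 7 tested genes (Lamc1, Nid2 and Hspg2), or 42.9%, against 30.7% of all 8019 genes. Of these, 2 were above and 1 below, where 14.2% of all genes were above and 16.5% below. With the dim genes it was 6 of 10, 3 above and 3 below, against 25.1% of all 12393 genes, 12.8% above and 12.2% below. Taken by pairs, knockout and wild type did not overlap in 3 of the 7, against 52.9% of all genes, and knockout and heterozygotes in 4 of the 7, against 40.1%. Heterozygotes and wild type overlapped in all 7, where 17.4% of all genes did not overlap.

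**Figure D2:**
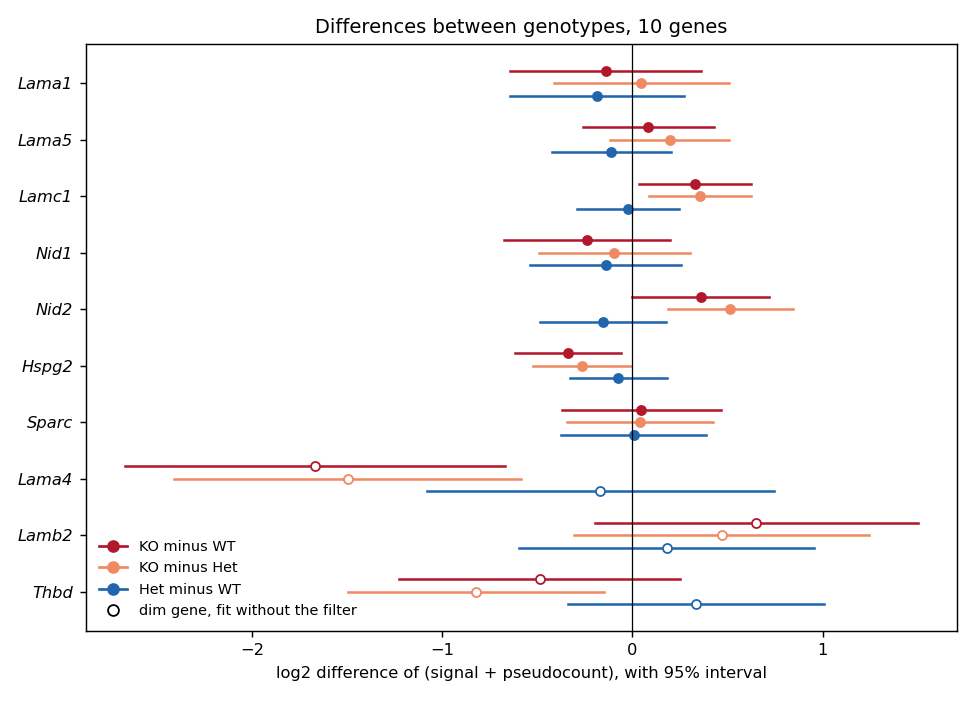
Log2 differences between genotypes for the 10 genes, with 95% intervals from limma. Filled points are genes past the filter and open points are dim genes from the fit without it. Most intervals of the filled points span 0, the Lamc1 and Hspg2 intervals of the knockout comparisons and the Nid2 interval against heterozygotes do not, and the open points have wider intervals, of which those of Lama4 in both knockout comparisons and of Thbd against heterozygotes do not span 0.

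Sparc was measured by a pair of bright probe sets that disagreed in part. The brighter one read 500.0 and 513.0 in the knockout, 587.9, 406.3 and 500.5 in heterozygotes and 415.7 and 578.8 in wild type, with both knockout pools inside the span of the other groups. Its means were 506.5 ± 9.19 in the knockout (SD, n = 2), 498.2 ± 90.8 in heterozygotes (n = 3) and 497.3 ± 115 in wild type (n = 2). The knockout was 1.03-fold wild type (95% interval 0.772 to 1.38, limma, adjusted p = 0.933). The difference of 0.05 from wild type was -0.19 without wild-type replicate 1.

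The other Sparc probe set read 579.7 and 515.0 in the knockout, 685.0, 344.1 and 316.8 in heterozygotes and 404.0 and 369.1 in wild type. Here both knockout pools were above wild type, with a log2 difference of 0.50 that did not pass (SE 0.30, limma, adjusted p = 0.426). Both probe sets were highest in heterozygous replicate 1, the pool with the high Prl8a2 signal. Both Hspg2 probe sets were highest in that pool too, at 351.5 and 117.7. Of the other decidua markers, Dcn at 61.6 was highest there, while Bmp2 at 8.0 and Esr1 at 3.3, both dim, were lowest. Wnt4 at 72.4, Cryab at 61.4 and Des at 76.7 lay within the range of the other pools. So did Hand2 at 47.5, Pgr at 14.2, Hoxa10 at 19.3 and Hoxa11 at 37.0. Outside the decidua list, Srgn at 118.8, from the parietal endoderm list, and Htra1 at 114.9, from the protease list, were also highest in that pool. They read 5.0 to 45.5 and 1.5 to 28.9 in the other pools. The decidua markers, Srgn and Htra1 were named here after their values were seen. Whether Prl8a2 shares a source with Sparc or Hspg2 in that pool was not tested.

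Thbd was dim. It read 21.4 and 14.0 in the knockout, 35.6, 29.6 and 36.2 in heterozygotes and 22.8 and 29.4 in wild type, with both knockout pools lowest. It did not pass in the fit without the filter, at -0.49 from wild type (SE 0.33, limma, adjusted p = 0.537) and -0.82 from heterozygotes (SE 0.30, adjusted p = 0.190). Of 14 genes of coagulation control on endothelium, 13 had a probe set of their own and 4 passed the filter, and 0 of 4 rose or fell in either knockout comparison.

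**Figure D3:**
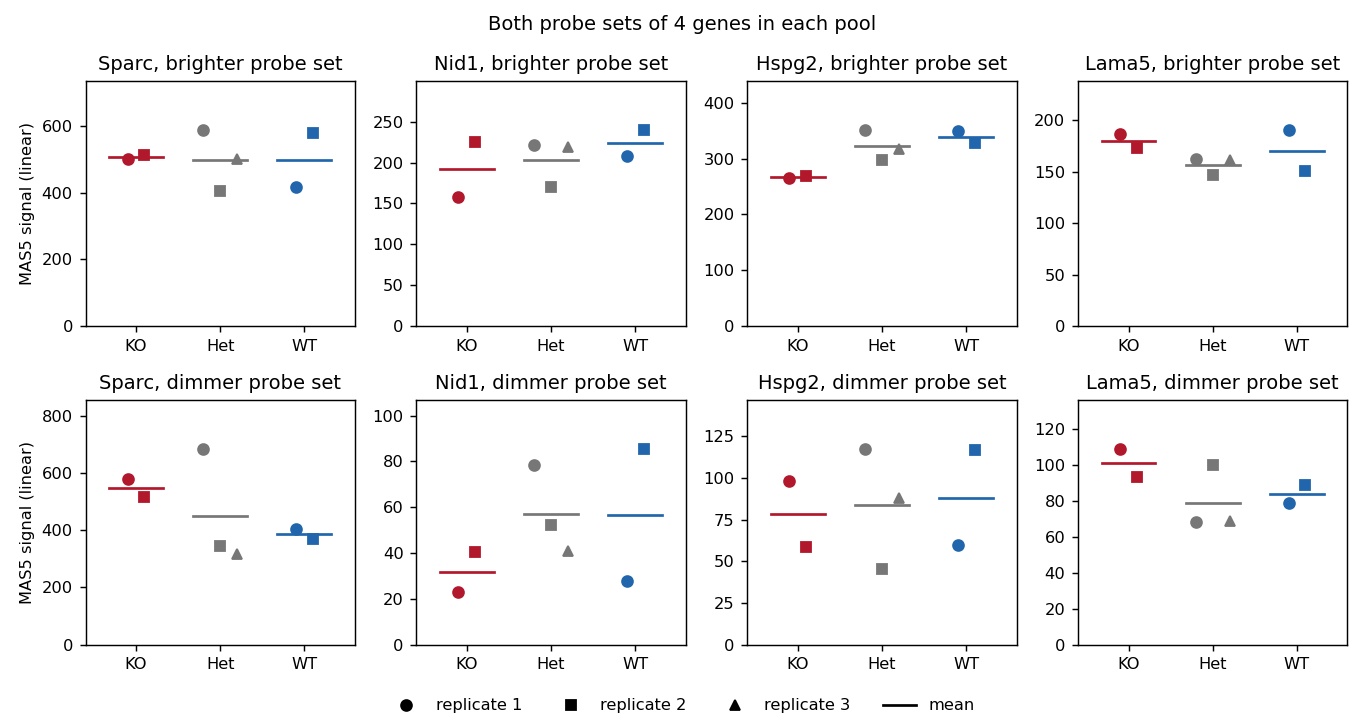
Linear MAS5 signal of both probe sets of Sparc, Nid1, Hspg2 and Lama5 in each pool, the brighter one on top, with a point per pool and a line at the mean. The lower Sparc panel has heterozygous replicate 1 at 685.0, and the Hspg2 separation of the knockout in the upper panel is not seen in the lower one.

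Other genes of the pathway were taken from lists. Over all 8019 genes 1.96% rose and 1.36% fell against wild type, and 3.11% rose and 2.76% fell against heterozygotes. Lamb1, the beta chain that joins Lama1 and Lamc1 in laminin 111, read 236.1 and 198.9 in the knockout, 144.8, 155.4 and 199.4 in heterozygotes and 174.3 and 147.0 in wild type. It did not pass, at 0.43 from wild type (SE 0.18, limma, adjusted p = 0.239). Col4a1 (0.18, adjusted p = 0.529) and Col4a2 (0.24, adjusted p = 0.584), the main chains of type IV collagen, did not pass either, and Col4a2 was at -0.13 without wild-type replicate 1. These 3 were named after their values were seen. Of 16 measured other structural proteins 0 rose and 0 fell against wild type (median 0.21, all genes -0.01), and 1 rose against heterozygotes.

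That one was Smoc2, a secreted calcium-binding protein related to Sparc. It read 131.4 and 138.7 in the knockout, 49.8, 65.3 and 54.7 in heterozygotes and 78.1 and 33.6 in wild type, and was 1.21 above heterozygotes (SE 0.29, limma, adjusted p = 0.0402). Against wild type the difference of 1.33 did not pass (adjusted p = 0.0523). Without heterozygous replicate 1 or 3 or either knockout array the first call was lost (adjusted p 0.0837 to 0.212), and without wild-type replicate 1 or heterozygous replicate 1 the second passed (lowest 0.00551). Of 3 measured other laminins and netrins 0 passed against wild type, and Ntn1, the guidance cue netrin 1, fell against heterozygotes by 0.48 (adjusted p = 0.0491). Leaving out any array but heterozygous replicate 2 ended that call (0.0695 to 0.269).

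Few receptors passed. Of 16 measured, 1 rose and 0 fell against wild type (median 0.10) and 2 rose against heterozygotes (median 0.04). Sdc4, the cell surface proteoglycan syndecan 4, read 259.1 and 308.1 in the knockout, 60.9, 112.3 and 100.2 in heterozygotes and 138.9 and 89.6 in wild type. It rose by 1.31 against wild type (SE 0.28, limma, adjusted p = 0.0345) and by 1.64 against heterozygotes (SE 0.26, adjusted p = 0.00714). Without wild-type replicate 2, heterozygous replicate 3 or either knockout array the first call was lost (0.0587 to 0.270), and without either knockout array the second (0.0552 to 0.0927). Sgce, the dystroglycan-associated sarcoglycan epsilon, rose by 0.74 against heterozygotes (adjusted p = 0.0340), but not without heterozygous replicate 3 or either knockout array (0.0599 to 0.212). Its difference of 0.76 from wild type did not pass (adjusted p = 0.0550), though it did without heterozygous replicate 1 (lowest adjusted p 0.0280) or replicate 3.

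Enzymes that modify collagen were among the genes that rose. Of 19 measured genes of assembly and crosslinking, 2 rose and 0 fell against wild type (median -0.02) and 3 rose against heterozygotes (median 0.07). Plod2, a lysyl hydroxylase of collagen, read 688.1 and 666.9 in the knockout, 224.9, 330.4 and 290.6 in heterozygotes and 317.2 and 288.1 in wild type. No value overlapped, and it rose by 1.15 against wild type (SE 0.17, limma, adjusted p = 0.00635) and by 1.27 against heterozygotes (SE 0.15, adjusted p = 0.00170). P4ha1, a catalytic subunit of collagen prolyl 4-hydroxylase, read 371.7 and 365.6 in the knockout, 221.3, 232.9 and 205.5 in heterozygotes and 212.1 and 209.5 in wild type.

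P4ha1 rose by 0.80 against wild type (SE 0.12, limma, adjusted p = 0.00848) and by 0.74 against heterozygotes (SE 0.11, adjusted p = 0.00622). Both Plod2 and P4ha1 lost their call against wild type when wild-type replicate 2 or a knockout array was left out (0.0613 to 0.0841). P4ha1 also lost it against heterozygotes without either knockout array (0.0735 to 0.0772), where Plod2 kept it. Both genes are known as targets of the response to low oxygen as well as matrix enzymes. P4hb, the other subunit of the prolyl hydroxylase and a general disulphide isomerase, rose by 0.31 against heterozygotes (adjusted p = 0.0499), a call that any left-out array ended (0.0615 to 0.254).

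Among 13 measured matrix proteases and inhibitors, 2 rose and 0 fell against wild type (median -0.02), and 2 rose and 3 fell against heterozygotes (median 0.12). The risen ones were the lysosomal cathepsins Ctsl, by 1.31 (limma, adjusted p = 0.000646), and Ctsb, by 0.87 (adjusted p = 0.00478; 0.0647 without knockout replicate 2), and both also rose against heterozygotes, by 1.20 (adjusted p = 0.000437) and 0.87 (adjusted p = 0.00201). The fallen ones were Timp2 (-0.72, adjusted p = 0.0154) and Timp1 (-0.78, adjusted p = 0.0352), which inhibit matrix metalloproteases, and Bmp1, a procollagen protease (-1.38, adjusted p = 0.0442). Against wild type none of these 3 passed (adjusted p = 0.0625 for Timp2, 0.181 for Timp1 and 0.0764 for Bmp1; Bmp1 0.0214 without knockout replicate 1). The falls were not called without either knockout array for Timp2 (0.0758 and 0.145), without any single array for Timp1 (0.0515 to 0.208) and without any array but knockout replicate 1 for Bmp1 (0.0545 to 0.268). Timp1 was named after its values were seen.

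**Figure D4:**
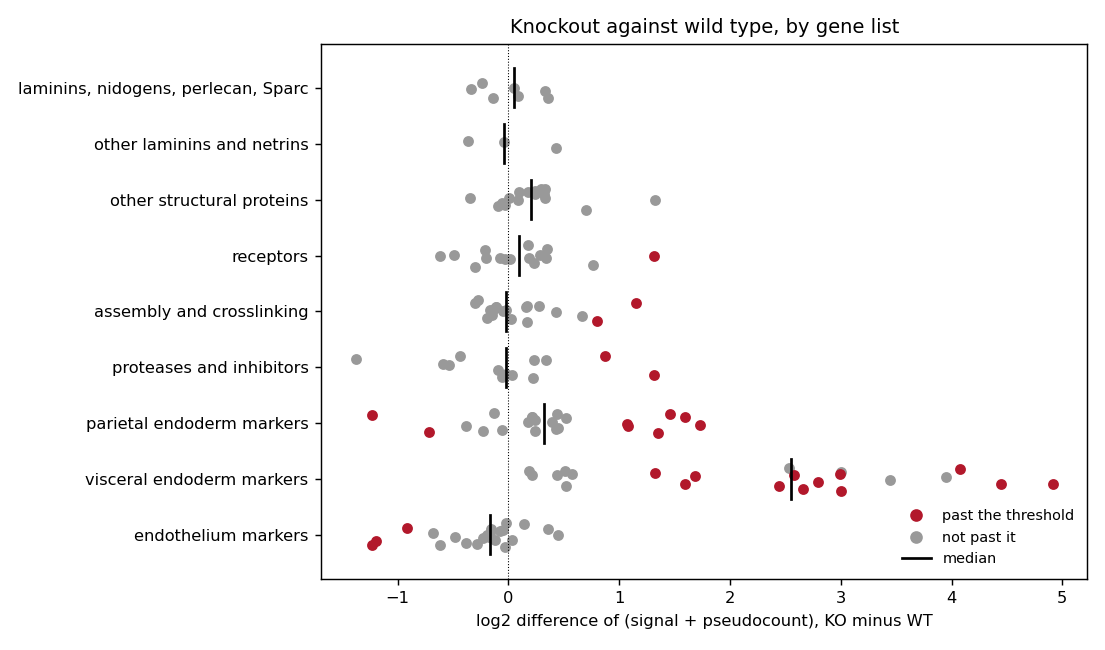
Log2 differences between knockout and wild type for the measured genes of 9 lists, a point per gene, in red where past the threshold, with a line at each median. No laminin or other structural gene is in red, while visceral endoderm markers have a median of 2.55.

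Visceral endoderm, the outer layer of the yolk sac, was represented by 31 marker genes. The yolk sac was removed per the labels, and whether some of it remained in any pool was not tested. Of 22 measured visceral endoderm markers 12 rose and 0 fell against wild type (median 2.55, all genes -0.01) and 15 rose against heterozygotes (median 2.93), on a list chosen with earlier results of these arrays known. Their summed signal over 28 genes was 13275 and 15719 in the knockout, 1553, 2823 and 1853 in heterozygotes and 4073 and 1447 in wild type, with 0 of the 28 at 0 on any array. The largest called differences from wild type were those of Apoa1 (4.91, limma, adjusted p = 0.0171), Spink1 (4.45, 0.0181) and Cubn (4.08, 0.00365), an apolipoprotein, a protease inhibitor and an endocytic receptor, and Apoc2 passed against heterozygotes only (4.92, 0.0365). With 1 array left out the differences from wild type ran from 3.40 to 6.43 for Apoa1, from 2.82 to 6.08 for Spink1 and from 3.18 to 4.98 for Cubn, and that of Apoc2 from heterozygotes from 3.71 to 5.86. These calls were lost without knockout replicate 2, and all but Cubn's also without replicate 1 (0.0514 to 0.194), Apoa1's also without wild-type replicate 2 and Apoc2's without heterozygous replicate 3. Wild-type replicate 1 had the highest visceral endoderm sum of the 5 non-knockout pools. It was also the highest of the 5 for Lama5, Lamc1 and Nid2 and the lowest for Lama4, Lamb2 and Thbd. For Lama1, Nid1, Hspg2 and Sparc it was at neither end, on the probe sets that stood for them. The share of all genes at either end in wild-type replicate 1 was not counted. Both knockout pools lay above all others for Lamc1, Nid2 and Lamb2 and below all others for Hspg2, Lama4 and Thbd. The part of visceral endoderm in these signals was not tested. The summed signal of the 10 genes themselves was 1799 and 1856 in the knockout, 1951, 1587 and 1746 in heterozygotes and 1767 and 1940 in wild type. In pooled tissue, a change in the number of cells of a type and a change in RNA per cell cannot be told apart.

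Parietal endoderm markers outside the 10 genes were divided. Of 22 measured, 6 rose and 2 fell against wild type (median 0.32), and 6 rose and 1 fell against heterozygotes (median 0.21). The leading rises were Cited1, a transcriptional coregulator (1.73, limma, adjusted p = 0.00244), Dab2, an endocytic adaptor (1.60, 0.00392), and the keratins Krt8 (1.46, 0.0240) and Krt19 (1.35, 0.0108), of which Dab2 also stands in the visceral endoderm list and keratins mark epithelia in general. Dab2 was not called without knockout replicate 2 (0.0547), and the keratins with wild-type replicate 2 or any knockout array left out (0.0883 to 0.190). Snai1 (-1.23, adjusted p = 0.00620), a repressor of epithelial genes, and Vim (-0.71, 0.0379), the intermediate filament vimentin, fell, and both were named after their values were seen. Snai1 was lost without wild-type or knockout replicate 2 (0.0641 and 0.0704), and Vim without any array but wild-type replicate 1 or heterozygous replicate 1 (0.0517 to 0.272). The summed signal of 24 such genes was 11634 and 12295 in the knockout, 10040 to 10317 in heterozygotes and 10110 and 10674 in wild type.

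Endothelium is known to make Lama4, Hspg2, Sparc and Thbd, though not only these of the genes followed here. Some of its markers fell in the knockout. Of 22 measured, 3 fell and 0 rose against both wild type (median -0.17) and heterozygotes (median -0.21). Their summed signal over 23 genes was 2155 and 2275 in the knockout, 2838, 2718 and 2629 in heterozygotes and 2829 and 2506 in wild type, with 0 of 23 at 0 on any array. The 3 were Emcn (-1.23, limma, adjusted p = 0.00848), Cd34 (-1.20, 0.00620) and Plvap (-0.92, 0.0144), surface proteins of vessels. The other 19 did not pass. Of all 22 differences from wild type, 18 were negative and 4 positive. Cdh5 was at -0.08, Esam at -0.03, Tek at 0.36 and Sox7 at 0.45, all named after their values were seen. Against wild type Emcn and Cd34 were not called without wild-type or knockout replicate 2 (0.0514 to 0.0910), nor Plvap without any wild-type or knockout array (0.0535 to 0.121). Against heterozygotes Emcn was not called without knockout replicate 2 (0.0793), nor Plvap without knockout replicate 1 (0.0722). Lama4, Thbd and Hspg2 were lowest in the same 2 pools on the probe sets tested, while the second probe sets of Lama4 and Hspg2 overlapped between genotypes. Lamc1 (230.9 and 264.2), Nid2 (273.0 and 256.3) and Lamb2 (29.0 and 35.7) were highest in those 2 pools. Sparc was not lower there, with means of 506.5 in the knockout, 498.2 in heterozygotes and 497.3 in wild type on its first probe set. The part of endothelium in these signals was not tested.

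Of the remaining lists, 0 of 4 trophoblast markers and 0 of 9 primitive erythroid markers passed in either knockout comparison. Of 6 decidua markers 1 fell against both, Wnt4 (-1.26 from wild type, limma, adjusted p = 0.0371), which the embryo also expresses. Against wild type its call was lost without any array but heterozygous replicate 1 or knockout replicate 2 (0.0527 to 0.242), and against heterozygotes without heterozygous replicate 3 or knockout replicate 1 (0.0667 and 0.156). Of 15 markers of the embryo proper 4 fell in both comparisons: Prrx1 (-1.45, adjusted p = 0.00928), Meox1 (-1.23, 0.00622), Twist1 (-0.95, 0.00657) and Sox2 (-0.79, 0.00641), transcription factors of mesenchyme, somites, head mesenchyme and neural tube. Meox1 was not called without knockout replicate 2 (0.0677), Sox2 without wild-type or knockout replicate 2 (0.0609 and 0.0827), and Prrx1 and Twist1 with wild-type replicate 2 or any knockout array left out (0.0514 to 0.105). Against heterozygotes each of the 4 was lost without at least 1 knockout array (0.0745 to 0.115).

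The basement membrane genes did not follow one pattern over the arrays. As a description over 7 pools, which share genotype, Pearson's r of log2 signal was 0.81 between Lamc1 and Nid2, 0.84 between Lama5 and Nid2 and -0.75 between Lamc1 and Hspg2. Lama1 and Lamc1, chains of the same trimer, had r = -0.30. Among the 8018 other genes past the filter, or 8019 for the dim Thbd, the closest to Lama1 were Csf1 (r = 0.95), Klc1 (0.94), Txnrd2 (0.93) and Esco1 (0.92). Closest to Sparc were Stmn2 (0.98), St6galnac3 (0.97), Ube2g2 (0.96) and Ube2e2 (0.96), and closest to Thbd were Zfp746 (0.98), Ddx52 (0.97), Bysl (0.97) and Morn4 (0.96). None of these 12 is a basement membrane gene of the lists used here.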

How the data were processed

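The deposited values are intensity values: linear MAS5 signals per probe set, computed by the authors per the submitters' processing notes. The sources used here name no software version, scaling target or detection call. Each array's trimmed mean, leaving out 2% of probe sets at either end, was 149.6 to 150, so changes are relative to the whole array. Titles of the samples gave the groups and replicate numbers. Of 22690 probe sets 64 are controls, and 20380 have 1 symbol.

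Values were analysed as log2(signal + 3.8), with the 10th percentile of all signals as pseudocount. Each gene's brightest probe set stood for it, and genes under the 40th percentile of mean log2 signal (38.1 as signal plus pseudocount) were left out. The test was limma 3.58.1 under R 4.3.3 (lmFit, eBayes with an intensity trend), with genotype as the only term, 4 residual and 6.19 prior degrees of freedom, two-sided, over all 8019 genes. Second probe sets were tested in a fit with a row per probe set. The script was tested on simulated data.

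The genes, lists, tests and alternatives were chosen with earlier results of these data known. From each list, up to 4 genes past the threshold in either knockout comparison were named, those with the largest difference from wild type, and exceptions are stated. The labels do not say how litters were divided among pools, and p-values measure the spread between these pools.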

Additional observations from a re-analysis of the deposited data

How the results depend on the processing

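The 7 tested genes gave 0 calls in each comparison under all alternatives but array weights, which called 1 (Nid2) between knockout and heterozygotes. The count over all genes between knockout and wild type, 266, was 161 with no filter, 174 with no trend, 514 with array weights, 72 with the replicate block and 36 to 417 with 1 array left out. The lowest was without knockout replicate 2, and it was 57 without wild-type replicate 2 and 75 without knockout replicate 1, and the highest was without heterozygous replicate 1. Between knockout and heterozygotes, 470 genes became 306 with no filter, 262 with no trend, 663 with array weights, 76 with the replicate block and 67 to 545 with 1 array left out (78 without knockout replicate 1, 67 without replicate 2, 246 without heterozygous replicate 3). An arm left with 1 array is assumed to vary like the others. The labels do not say that a replicate number marks a litter, so the numbers were not taken as pairs. Deviations of same-numbered pools had r = -0.05 between knockout and wild type and about 0 between knockout and heterozygotes. Between heterozygotes and wild type r was -0.29 and -0.28. With 2 pools each in knockout and wild type, both numbers give the same r by construction, so these values cannot decide the pairing. The block changed no call of the 10 genes. Of 51 calls named for other genes, the replicate block ended 28 (adjusted p 0.0524 to 0.178), among them those of Sdc4 and P4ha1 in both comparisons, Krt8, Krt19 and Smoc2. No filter ended 13, no trend 11, a test of every probe set 8, the 2 compared genotypes alone 6, averaged probe sets 5 of 50 (Ctsb against wild type among them), quantile normalization 4 and a pseudocount of 1 ended 2. A pseudocount of 16 and array weights ended 0 of the 51, and a filter at the 60th percentile 0 of the 39 it kept.

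Signs of small differences that no setting called turned in few cases, and the cause was not tested. Averaging probe sets gave -0.29 and -0.20 for Lamc1 (knockout against wild type and heterozygotes) and 0.0037 for Nid1 (heterozygotes against wild type). The replicate block gave -0.10 for Lama1 between knockout and heterozygotes. For Sparc between heterozygotes and wild type, quantile normalization gave -0.0045, array weights -0.0102 and the block -0.0052. With 1 array left out, ranges that crossed 0 between knockout and wild type were -0.36 to 0.0786 for Lama1, -0.0822 to 0.25 for Lama5, -0.49 to 0.0127 for Nid1, -0.19 to 0.28 for Sparc and -0.13 to 0.60 for Col4a2. Between knockout and heterozygotes they were -0.14 to 0.23 for Lama1, -0.35 to 0.15 for Nid1 and -0.10 to 0.17 for Sparc. Between heterozygotes and wild type they were -0.41 to 0.0319 for Lama1, -0.85 to 0.51 for Lama4, -0.28 to 0.0543 for Lama5, -0.26 to 0.62 for Lamb2, -0.085 to 0.0357 for Lamc1, -0.33 to 0.0229 for Nid2 and -0.23 to 0.24 for Sparc. Few pools and dim probe sets limit these values.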
